A study of Mus musculus with 2 samples.

Results

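The Mu class of glutathione transferases is encoded in mouse by a cluster of neighbouring genes, and all 7 named members (Gstm1 to Gstm7) were found by symbol among the 43346 genes of the deposited liver tables. The samples were 2 poly-A RNA-seq libraries of adult liver, labelled biological replicates 1 and 2 of 1 group, from wild-type mice of the strain C57BL/6J aged 8 weeks, with tissue of both sexes mixed according to the labels. Both carry 1 donor identifier under separate biosamples, and nothing in the labels says whether separate animals were used, so the spread given here may be technical only. Estimated reads came to 60770411 for replicate 1 and 61688916 for replicate 2. The labelled mixture of sexes was not seen in the reads: the 1569 genes listed on chromosome Y had 0 and 1 reads, while Xist, transcribed from the inactive X chromosome of female cells, had 18451 and 26061. The hepatocyte markers Alb, Apoa1, Ttr, Hnf4a, Cyp2e1, Serpinc1, Tat and Cps1 were each detected in both libraries and together held 55885 and 58458 TPM, the length-scaled abundance whose values sum to a fixed total in each library. Whole tissue was sequenced, so fewer cells of a type and less RNA per cell cannot be told apart.

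Glutathione transferases join the tripeptide glutathione to electrophilic compounds, which makes them more soluble and ready for export from the cell. The Mu enzymes are soluble proteins of the cytosol that work as dimers, and liver is a main site of their action on reactive drug metabolites and products of lipid peroxidation. Their genes are known targets of the oxidative stress factor NRF2 and of receptors for foreign compounds.

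All 7 genes lie on chromosome 3 between bases 107895821 and 108044894 of GRCm38, a span of 149074 bases, with 6 genes on the minus strand and Gstm5 on the plus strand at the low end. From low to high coordinates the order is Gstm5 (107895821 to 107898686), Gstm7 (107926334 to 107931817), Gstm6 (107938847 to 107943749), Gstm3 (107963696 to 107969283), Gstm2 (107981702 to 107986453), Gstm1 (108012255 to 108017973) and Gstm4 (108040408 to 108044894). In the files they carry the identifiers ENSMUSG00000004032, ENSMUSG00000004035, ENSMUSG00000068762, ENSMUSG00000004038, ENSMUSG00000040562, ENSMUSG00000058135 and ENSMUSG00000027890 in that order. For sequence comparisons the leading transcript of each member was used, and for Gstm4 the full-length Gstm4-201. These encode 218 amino acids for 6 members and 224 for Gstm5. Coding sequences of Gstm1 and Gstm3 were the closest pair, identical at 89.5% of 657 aligned bases. Gstm5 was the most distant member, with identities of 69.7% to 72.6% to the other 6.

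How far the members can be told apart by single reads of 76 bases depends on stretches that 2 genes share without a mismatch. The libraries hold paired reads, so the other read of a pair can also tell genes apart. The longest coding run shared by Gstm1 and Gstm3 is 112 bases, at coding bases 389 to 500 of both. It is shown for all members with 12 further bases on each side, as the longest coding stretch that the most abundant member shares with another member. Lines are GENCODE coding sequence, 5′ to 3′, and capitals mark bases that differ from Gstm1.
Gstm1: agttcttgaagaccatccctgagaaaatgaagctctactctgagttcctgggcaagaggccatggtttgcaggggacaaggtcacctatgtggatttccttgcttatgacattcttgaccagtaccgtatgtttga
Gstm2: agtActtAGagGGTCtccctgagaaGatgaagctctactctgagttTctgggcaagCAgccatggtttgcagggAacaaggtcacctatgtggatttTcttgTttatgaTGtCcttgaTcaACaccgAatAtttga
Gstm3: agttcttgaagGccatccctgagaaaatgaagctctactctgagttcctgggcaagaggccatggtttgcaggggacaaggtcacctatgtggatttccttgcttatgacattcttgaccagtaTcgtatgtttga
Gstm4: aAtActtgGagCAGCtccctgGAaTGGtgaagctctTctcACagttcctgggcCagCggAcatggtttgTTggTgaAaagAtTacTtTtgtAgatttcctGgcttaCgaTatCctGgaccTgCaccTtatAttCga
Gstm5: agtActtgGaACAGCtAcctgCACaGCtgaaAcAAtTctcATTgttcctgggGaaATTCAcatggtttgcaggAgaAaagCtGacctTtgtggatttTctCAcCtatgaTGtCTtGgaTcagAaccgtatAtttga
Gstm6: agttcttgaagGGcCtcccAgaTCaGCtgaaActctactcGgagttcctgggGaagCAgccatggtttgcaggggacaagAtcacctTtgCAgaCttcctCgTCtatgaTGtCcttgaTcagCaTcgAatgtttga
Gstm7: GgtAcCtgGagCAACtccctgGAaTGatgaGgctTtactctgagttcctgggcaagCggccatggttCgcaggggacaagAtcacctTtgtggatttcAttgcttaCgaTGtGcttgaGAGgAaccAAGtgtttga
Within these 136 bases Gstm3 had 2 mismatches to Gstm1, both outside the shared run, Gstm2 had 22, Gstm6 28, Gstm7 30, Gstm4 37 and Gstm5 43. A second long run of 125 bases, at coding bases 169 to 293, is shared by Gstm3 and Gstm6 and is shown as well.
Gstm3 and Gstm6: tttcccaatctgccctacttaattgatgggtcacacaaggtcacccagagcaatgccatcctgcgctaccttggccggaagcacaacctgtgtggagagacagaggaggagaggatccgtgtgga
Of all windows of 76 bases in these transcripts, 68 were common to Gstm1 and Gstm3 and 50 to Gstm3 and Gstm6, and no other pair of members shared any. The 68 windows are more than the run of 112 bases can hold, so Gstm1 and Gstm3 share further sequence that is not shown. Searched against all annotated transcripts, 14.6% of the windows of Gstm1, 21.3% of Gstm3, 5.29% of Gstm6 and 3.03% of Gstm2 also occurred in another gene or pseudogene, among them Gstm2-ps1 on chromosome 5, and none did for Gstm4, Gstm5 and Gstm7.

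The authors' posterior standard deviation of the estimated read count is larger where reads could belong to more than 1 gene. It was 0 reads in both libraries for Gstm2, Gstm4, Gstm5, Gstm6 and Gstm7. For Gstm1 and Gstm3 it was 11.0 reads in replicate 1 and 8.65 reads in replicate 2, the same number for both genes. That was 0.00815% and 0.00490% of the reads of Gstm1 and 0.148% and 0.125% of those of Gstm3. Of 1844 protein-coding genes at a mean of 50 TPM or more, 77.7% had a posterior standard deviation of 0 in both libraries. Gstm2-ps1 had no matching entry among the quantified genes, so the posterior standard deviation may not cover reads shared with it.

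Gstm1, the main Mu enzyme of mouse liver, stood far above the others. Its level was 2551 and 3263 TPM in replicates 1 and 2, on 135507 and 176525 reads, a mean of 2907 ± 503 TPM (SD, n = 2). It held rank 30 among 21461 nuclear protein-coding genes. In level it lay between Ass1 of the urea cycle (3164 ± 254 TPM) and the complement gene C3 (3232 ± 94.8 TPM) above and the aldehyde dehydrogenase Aldh2 (2866 ± 529 TPM) and the class I histocompatibility gene H2-Q10 (2760 ± 260 TPM) below. The ranges of Gstm1 and of both Aldh2 and H2-Q10 overlapped, and so did those of Gstm1 and Ass1 and of Gstm1 and C3.

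Gstm2 was next at 227 and 191 TPM in replicates 1 and 2 (209 ± 25.1 TPM, rank 571), on 9592 and 8215 reads. Its lower library was still above every value of the remaining members. Gstm3 had 136 and 124 TPM (130 ± 8.80 TPM), Gstm6 122 and 119 TPM (120 ± 2.54 TPM) and Gstm7 109 and 93.2 TPM (101 ± 11.3 TPM). The means of these 3 genes ran from 101 to 130 TPM. Gstm4 had 72.0 and 85.0 TPM (78.5 ± 9.23 TPM). Gstm5, known for expression in brain and testis, was lowest at 9.58 and 10.7 TPM (10.2 ± 0.813 TPM), on 354 and 404 reads, which gave it rank 5232.

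**Figure D1:**
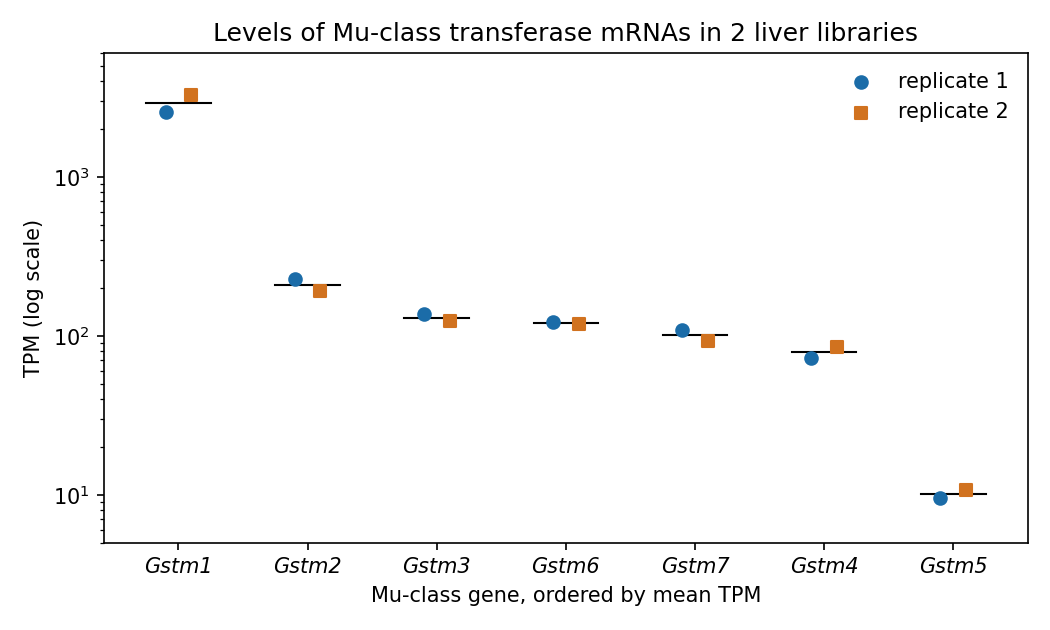
TPM (log axis) of the 7 Mu-class genes in replicate 1 (circles) and replicate 2 (squares), with a line at the mean of the 2 libraries. Gstm1 lies between 2551 and 3263 TPM, 5 genes between 72.0 and 227 TPM, and Gstm5 near 10 TPM.

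The order of the 7 genes was the same in both libraries. The ranges of the libraries did not overlap for any pair of neighbours in it, but the gaps differed in size. The smallest gap was between Gstm3 and Gstm6, where the lower value of Gstm3 was 124 TPM and the higher value of Gstm6 was 122 TPM, a difference within 1 SD of Gstm3. The means of Gstm1 and Gstm2 differed 13.9-fold, those of Gstm2 and Gstm3 1.60-fold, of Gstm6 and Gstm7 1.19-fold, of Gstm7 and Gstm4 1.29-fold and of Gstm4 and Gstm5 7.73-fold. These differences between levels are described and were not tested.

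Summed over the 7 genes the class held 3227 and 3886 TPM, or 0.323% and 0.389% of all TPM. Gstm1 made up 79.1% and 84.0% of that sum in replicates 1 and 2 (81.5% ± 3.48). Gstm2 held 7.02% and 4.92%, Gstm3 4.22% and 3.19%, Gstm6 3.79% and 3.05%, Gstm7 3.38% and 2.40%, Gstm4 2.23% and 2.19% and Gstm5 0.297% and 0.276%. The 6 members other than Gstm1 summed to 676 and 623 TPM, lower in replicate 2, where Gstm1 and the class total were higher.

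Position in the cluster and level can be read together. Gstm1 and Gstm4 are next to each other, 22434 bases apart, yet their means were 2907 and 78.5 TPM. Between Gstm1 and Gstm2 lie 25801 bases, and between Gstm6 and Gstm7 7029 bases. Of the 17 genes annotated within the cluster, those that are no member and were listed in the tables were all below 3 TPM. The antisense RNA 4933431E20Rik, which overlaps the first part of Gstm5 on the other strand, had 2.35 and 2.30 TPM, and the lincRNA Gm12498 between Gstm1 and Gstm4 had 0.06 and 0.26 TPM on 7 and 29 reads. The pseudogenes Gm12489, Gm12494, Gm12497, Gm12499 and Gm12502 and the small nucleolar RNA Gm25592 had 0 reads in both libraries. Gm9515, Gm43746 and Gstm2-ps1 had no matching entry among the quantified genes, so no level is given for them. Outside the cluster, Eps8l3, related to a substrate of the epidermal growth factor receptor, was at 0.05 and 0.06 TPM on the low side and the AMP deaminase gene Ampd2 at 61.5 and 113 TPM on the high side.

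**Figure D2:**
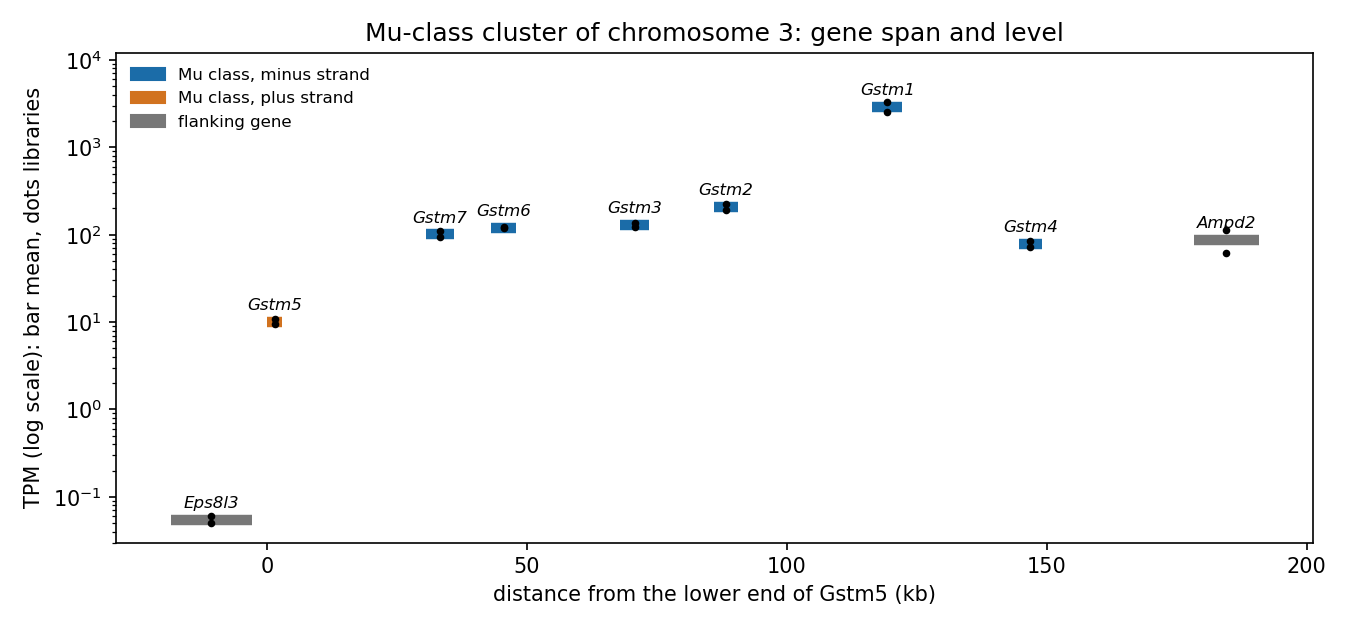
Level (TPM, log axis) of the Mu-class genes and their flanking coding genes against distance from the lower end of Gstm5 in kb; bars span each gene at its mean and dots are the 2 libraries. Gstm1 is above 2551 TPM while its neighbours Gstm2 and Gstm4 lie between 72.0 and 227 TPM.

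Promoter sequence is shown for the members at both ends of the range of levels, Gstm1 and Gstm5. The windows are from RefSeq on GRCm38.p6, 5′ to 3′ on the strand of the gene, and end just before the first base of the leading transcript, for which 33 bases of the Gstm5 window were left out. Gstm1 is chr3:108017974-108018223 on the minus strand and Gstm5 is chr3:107895604-107895820 on the plus strand. Capitals mark matches to CCAAT, to GCGTG (the core bound by the aryl hydrocarbon receptor) and to TGACNNNGC (the core of the antioxidant response element that NRF2 binds), on either strand.
Gstm1: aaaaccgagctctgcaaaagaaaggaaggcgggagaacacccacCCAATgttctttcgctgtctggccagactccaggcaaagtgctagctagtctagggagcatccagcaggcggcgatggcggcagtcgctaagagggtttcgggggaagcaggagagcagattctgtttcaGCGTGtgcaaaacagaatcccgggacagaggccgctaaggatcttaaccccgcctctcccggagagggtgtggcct
Gstm5: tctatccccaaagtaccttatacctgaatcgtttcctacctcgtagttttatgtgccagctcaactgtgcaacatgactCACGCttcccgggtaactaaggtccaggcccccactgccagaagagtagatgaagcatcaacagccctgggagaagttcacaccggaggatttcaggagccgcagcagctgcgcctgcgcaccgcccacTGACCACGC
The last capitals of Gstm5 are 1 antioxidant core, TGACCACGC, whose final 5 bases are also a reverse match to GCGTG. Each member was searched over the 250 bases before 1 RefSeq start, that nearest to the start of its leading transcript. Gstm1, Gstm4, Gstm6 and Gstm7 have other RefSeq starts, whose windows are not described here. In the bases searched, TGACCACGC of Gstm5 was the only match to TGACNNNGC in the 7 members, against 10.2% of 32851 promoter windows of that length. Not all of these bases lie upstream of the leading transcript. It starts 109 bases before the RefSeq start in Gstm3, 33 in Gstm2 and Gstm5 and 15 in Gstm6. The window of Gstm4 overlaps the first exon of Gstm4-201. CCAAT or its reverse was found in Gstm1, Gstm2, Gstm4, Gstm6 and Gstm7, against 33.8% of windows, GGGCGG in Gstm3, Gstm4 and Gstm5, against 32.7%, and GCGTG in Gstm1 and Gstm5, against 28.2%. TATAAA occurred in Gstm7 only, 231 bases before the start, against 12.4%. Neither CTTTGAT, a core of T-cell factor sites (3.21% of windows), nor CAAAGTCCA, a form of the HNF4A site (0.384%), was found in any member. GC content ran from 49.6% in Gstm2 to 59.6% in Gstm4, around the median of 52.4% of all windows. CG pairs numbered 13, 13 and 14 in Gstm1, Gstm5 and Gstm4 and 3 or 4 in the other members, with a median of 6 over all windows. Gstm1 and Gstm5, the members with the highest and the lowest level, had equal numbers of CG pairs.

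At the transcript level, 28 annotated transcripts of the members were quantified, and 8 of them held at least 10% of their gene in either library. Most members were made up of 1 full-length transcript of 8 exons. Gstm1-201 held 97.8% and 98.4% of Gstm1 in replicates 1 and 2, Gstm2-201 97.8% and 96.9% of Gstm2, Gstm5-201 99.3% and 99.2% of Gstm5 and Gstm7-201 92.3% and 92.5% of Gstm7. Gstm3 is annotated with a single transcript in the tables. Among the minor forms, those of Gstm1 had the most TPM, with 25.3 and 39.8 for Gstm1-202 and 30.85 and 12.3 for Gstm1-203. The estimate for Gstm1-203 rested on 1045 and 427 reads, with posterior standard deviations of 92.8 and 69.7 reads. The retained-intron model Gstm2-203 had 4.72 and 5.43 TPM, and the shortened Gstm7-204 had 5.11 and 4.87 TPM.

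Gstm4 was the exception, being split between 2 transcripts. Gstm4-203 held 62.0% and 55.5% of the gene (58.7% ± 4.60, n = 2) and Gstm4-201 38.04% and 44.55% (41.3% ± 4.60). They differ in the first exon, which has 15 bases in Gstm4-203 and 258 bases in Gstm4-201, and by 2 bases at the end of the last exon. The annotated coding part is 552 bases in Gstm4-203 against 654 in Gstm4-201, stop codon not counted. The posterior standard deviation of the split was 85.5 and 103 reads for Gstm4-203, on 2769 and 2973 reads, while that of the gene total was 0.

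In percent of the gene, Gstm6 differed most between the libraries in its minor forms. Gstm6-205 held 94.2% and 86.5% of the gene (90.3% ± 5.51). Gstm6-204, picked out after its values were seen, was at 1.44 and 8.42 TPM in replicates 1 and 2, or 1.18% and 7.10% of the gene. It differs from Gstm6-205 in exon 6, of 138 bases in place of 96, and at the outer ends of the first and last exons, with a coding part of 696 bases against 654. The estimate for Gstm6-204 rested on 69.5 and 414 reads with posterior standard deviations of 30.8 and 106 reads.

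**Figure D3:**
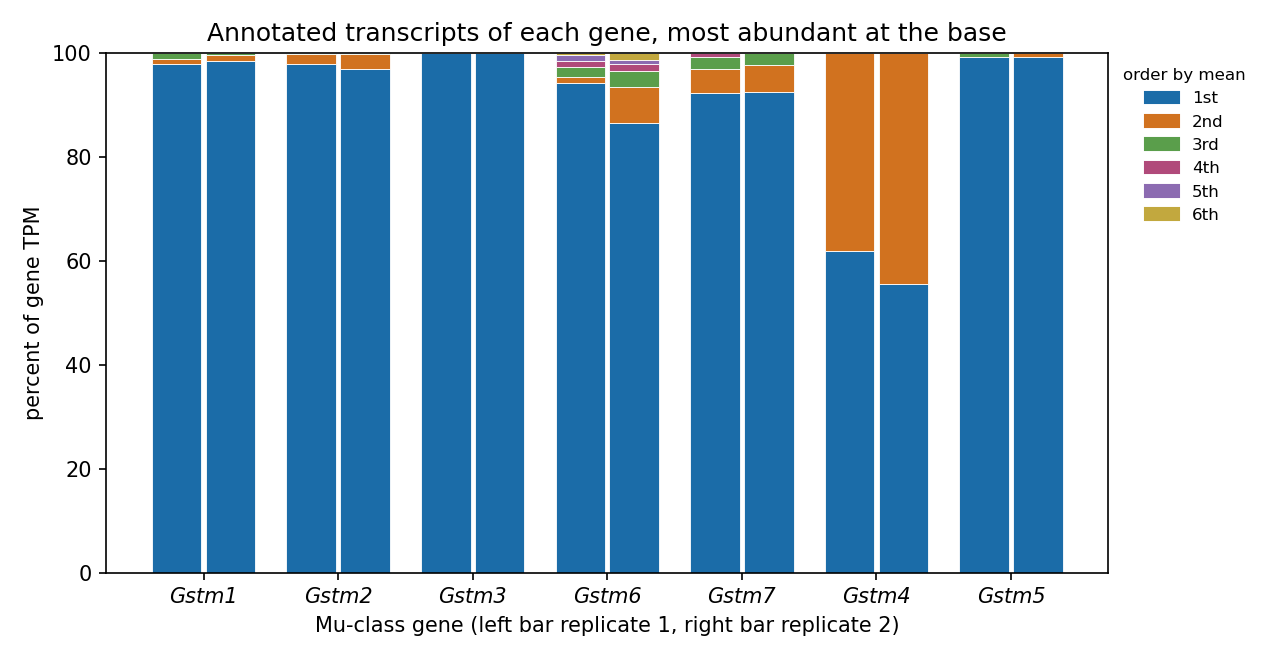
Percent of gene TPM held by each annotated transcript of the 7 genes, stacked from the most abundant at the base, with replicate 1 on the left and replicate 2 on the right of each pair. Gstm4 is divided between 2 transcripts at 62.0% and 38.04% in replicate 1, and the leading transcript of the other genes holds at least 86.5%.

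Replicate 2 was then set against replicate 1, to see how far the labelled replicates differed in these genes. This is no comparison of conditions. Gstm1 and Gstm4 were higher in replicate 2, and Gstm2, Gstm3, Gstm6 and Gstm7 were higher in replicate 1, by the exact conditional binomial test (two-sided) on reads scaled by TMM, a method that sets the bulk of genes equal. Thus 6 of 7 members passed at an adjusted p under 0.05, 2 in one direction and 4 in the other. The background was high at this depth, with 57.6% of 14533 genes called, 28.6% higher in replicate 2 and 29.0% higher in replicate 1. Among the 1916 genes at a mean of 50 TPM or more, 86.8% were called, as were all 6 members that lie there, Gstm5 being lower. Of these 1916 genes, 60.8% were called higher in replicate 1 and 25.99% higher in replicate 2. At such levels most genes were called.

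Gstm1 had a log2 ratio of replicate 2 to replicate 1 of 0.24, with a 95% interval of 0.23 to 0.25 that covers counting error only. Gstm4, its neighbour, had 0.13 (0.08 to 0.19, adjusted p = 6.81e-06 by the exact test). Gstm2 had -0.37 (-0.41 to -0.33, adjusted p = 1.47e-63 by the exact test), the largest size of ratio in the class at 1.29-fold. Gstm7 had -0.35 (-0.40 to -0.29), Gstm3 -0.26 (-0.31 to -0.21) and Gstm6 -0.16 (-0.22 to -0.11). Gstm5 had 0.05 (-0.16 to 0.26, adjusted p = 0.763 by the exact test), a difference that was not detectable at its depth. The median over the 7 members was -0.16, against 0.00 over all genes tested and -0.11 over those at 50 TPM or more. All members lay within 1.5-fold, as did 91.3% of genes at 50 TPM or more.

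Ratios between members need no scaling between libraries. For each read of Gstm2 there were 14.1 reads of Gstm1 in replicate 1 and 21.5 in replicate 2, and for each read of Gstm7 22.7 and 34.0. The same count was 18.2 and 25.6 for Gstm3 and 23.9 and 31.5 for Gstm6. It moved less for Gstm4, at 28.3 and 30.3. Against each of the 6 other members Gstm1 took more reads in replicate 2, by differing amounts (383 and 437 for each read of Gstm5).

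A scaling moves all genes by nearly the same amount on the log2 scale. Over all genes, total reads or spike-in totals gave medians of 0.13 and 0.15 on the log2 scale, and the share of called genes that were higher in replicate 2 was 69.3% and 73.7% in place of 49.7%. Under these the log2 ratio of Gstm6 was -0.04 (adjusted p = 0.176 by the exact test) and -0.01 (adjusted p = 0.709 by the exact test), and the call of Gstm6 was lost. Gstm1 was at 0.36 and 0.39 and Gstm2 at -0.25 and -0.22 with these scalings.

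**Figure D4:**
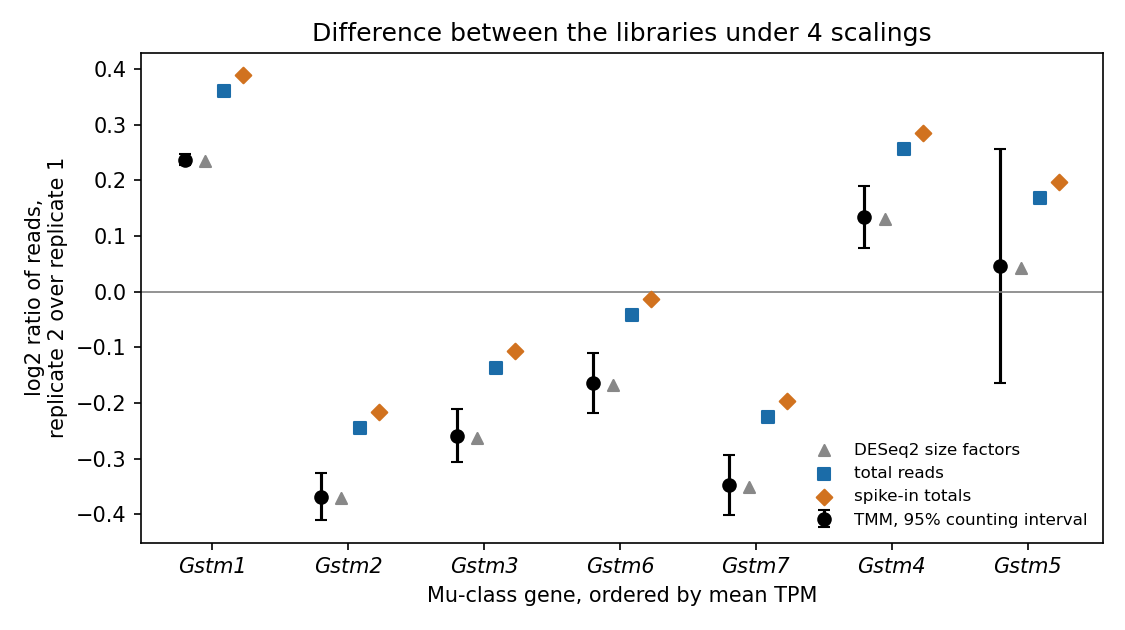
Log2 ratio of reads in replicate 2 over replicate 1 for each member with TMM scaling (black, 95% counting interval) and with DESeq2 size factors, total reads and spike-in totals. Gstm1 and Gstm4 are above 0 and Gstm2, Gstm3 and Gstm7 below 0 under all 4, while Gstm6 comes as near to 0 as -0.01.

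Markers of other liver cells moved between the libraries as well. All 7 Kupffer cell markers (Clec4f, Adgre1, C1qa, Cd5l, Vsig4, Marco and Timd4) were higher in replicate 2, with a summed level of 108 and 185 TPM in replicates 1 and 2, as were all 6 sinusoidal endothelial markers, at 92.3 and 125 TPM. Of the 8 hepatocyte markers, 2 were higher in replicate 2 and 6 in replicate 1 with TMM, but 5 and 3 with spike-in totals, with medians of -0.10 and 0.06. Of 6 stellate markers, 3 were higher in replicate 2 and 2 in replicate 1, at a sum of 100.2 and 113 TPM. Cholangiocyte markers summed to 19.5 and 17.4 TPM, with 1 of 5 tested called, higher in replicate 1, lymphocyte markers to 4.73 and 11.2 TPM, with 2 of 5 called, and red cell markers to 1290 and 2110 TPM, with 4 of 5 higher in replicate 2. Over all 14533 genes tested, 28.6% were higher in replicate 2 and 29.0% in replicate 1 with TMM, and 6411 and 2290 genes with spike-in totals. Of the cholangiocyte markers, Spp1 (16.2 and 14.4 TPM) and Krt19 (2.18 and 2.09 TPM) were detected at 1 TPM or more, and Krt7 was lower, at 0.24 and 0.26 TPM. The part of these cells in the ratios of the members was not tested.

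Among all transferases that use glutathione, the Mu class was second in abundance. Of 17 cytosolic genes of other classes listed 15 were found, and all 5 mitochondrial and microsomal ones. The alpha genes Gsta5 and Gsta13 were not analysed here, so the alpha sum lacks them. The 27 genes, with the microsomal family and its prostaglandin synthase Ptges included, gave the Mu class 25.7% and 29.0% of their summed TPM (27.3% ± 2.29), and Gstm1 by itself 20.3% and 24.3%. The microsomal class was higher at 6056 and 5930 TPM, nearly all of it Mgst1, a membrane-bound transferase and peroxidase, at 5903 ± 98.9 TPM. The theta class had 1128 and 1436 TPM, the pi class 760.3 and 955 TPM, the alpha class 645 and 568 TPM, the zeta gene Gstz1, an enzyme of tyrosine breakdown, 458 and 411 TPM, the mitochondrial kappa gene Gstk1 182 and 141 TPM and the omega class 89.9 and 88.5 TPM. The ranges of the Mu class and of these other classes did not overlap.

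**Figure D5:**
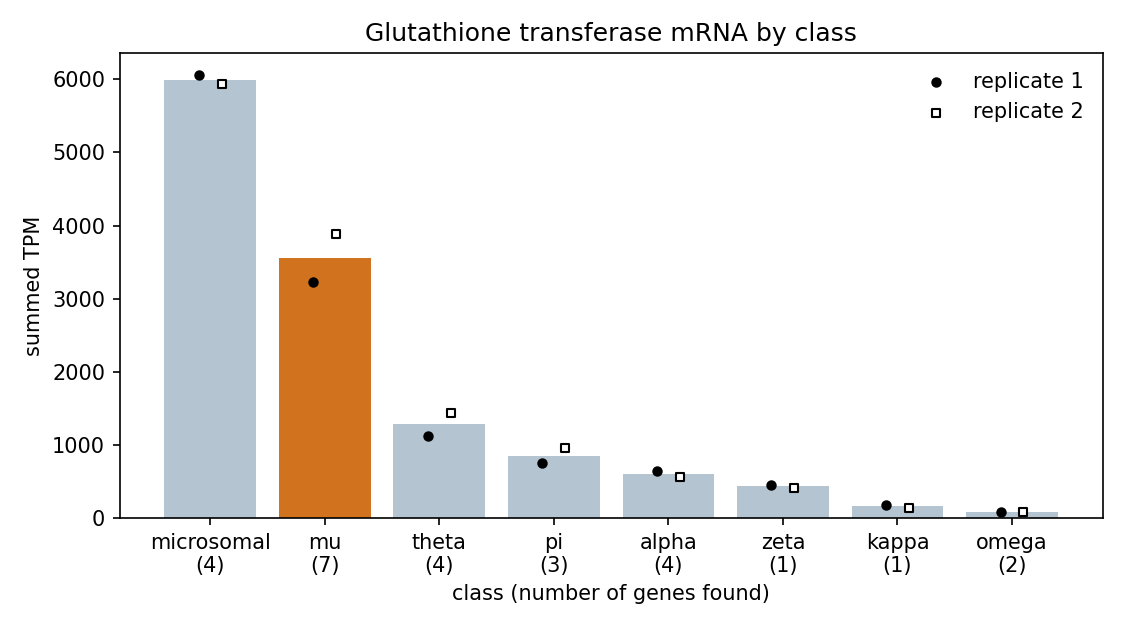
Summed TPM of each glutathione transferase class, as the mean of the 2 libraries (bars) with replicate 1 (filled circles) and replicate 2 (open squares); the number of genes found is in brackets. The Mu class, at 3227 and 3886 TPM, lies below the microsomal class and above the theta class, and the sigma gene Hpgds, at 0.0650 TPM, is not drawn.

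No single gene of the other cytosolic classes reached the level of Gstm1. The highest were Gstt1 at 951 ± 144 TPM, Gstp1 at 808 ± 142 TPM and Gsta3 at 544 ± 55.1 TPM, followed by Gstz1. Gstt3 had 174 ± 5.93 TPM, Gstt2 102 and 214 TPM, Gsto1 89.0 ± 1.04 TPM, Gstp3 45.2 ± 4.95 TPM, Gsta4 40.0 ± 1.56 TPM, Gsta2 20.7 ± 1.94 TPM, Gstp2 4.34 ± 0.283 TPM and Gsta1 1.99 ± 0.962 TPM. The microsomal Mgst3 had 89.0 ± 9.93 TPM. Gstm2, the second Mu gene, lay above Gstt3 in both libraries, and its range overlapped that of Gstt2. Of 14 cytosolic genes of other classes tested, 4 were higher in replicate 2 and 6 in replicate 1 by the exact test, with a median log2 ratio of -0.09, and with spike-in totals 5 and 4, with a median of 0.06. The shares over all 14533 genes were 28.6% higher in replicate 2 and 29.0% in replicate 1, and with spike-in totals 6411 and 2290 genes. Gstt1 and Gstp1, like Gstm1, were higher in replicate 2 (log2 ratios 0.20 and 0.25), and Gsta3, like Gstm2, was higher in replicate 1 (-0.35). The widest ratio was that of Gstt2 at 0.95.

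Transferases draw on glutathione made in the cell, and their conjugates are trimmed, acetylated and pumped out by other proteins. Among 15 genes of glutathione supply, Gls2, a glutaminase, had 1949 ± 707 TPM, the transsulfuration enzymes Cbs and Cth, which make cysteine, had 631 ± 73.3 and 431 ± 66.1 TPM, and the ligase subunits Gclm and Gclc 229 ± 39.4 and 111 ± 8.40 TPM. Of 14 tested, 1 was higher in replicate 2 and 10 in replicate 1, with a median log2 ratio of -0.44, and with spike-in totals 4 and 9, with a median of -0.29. Among 15 genes of conjugate export and mercapturate formation, the acetyltransferase genes Nat8f1 and Nat8f2 had 555 ± 21.9 and 239 ± 26.0 TPM, and the conjugate pumps Abcc3 and Abcc2 230 ± 29.1 and 223 ± 45.2 TPM. Of these 15, 4 were higher in replicate 2 and 8 in replicate 1, with a median of -0.21, and with spike-in totals 6 and 8, with a median of -0.06. Over all 14533 genes tested, 28.6% were higher in replicate 2 and 29.0% in replicate 1, and with spike-in totals 6411 and 2290 genes. At 50 TPM or more 25.99% were higher in replicate 2 and 60.8% in replicate 1. Not all genes of these 2 lists were abundant. Nat8 had 2.83 and 1.08 TPM and Dpep1 1.09 and 0.3 TPM in replicates 1 and 2, while Anpep had 51.6 and 48.8 TPM. Ggt1, counted with glutathione supply, had 0.58 and 0.17 TPM.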

How the data were processed

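Expression was read from the deposited gene and transcript tables of 2 libraries. Per the labels, these are strand-specific libraries of poly-A RNA longer than 200 nucleotides, sequenced as paired reads of 76 bases with spike-in RNAs. Per the notes deposited with the files, reads were assigned by the authors to GENCODE M4 on mm10. Which quantification tool and aligner they ran was not stated in the sources at hand. The deposited estimated counts need not be whole and were rounded for tests. The deposited TPM values are per effective length over all entries, spike-ins included, and the deposited percent is the share of a transcript in its gene. The deposited posterior standard deviation is a score in reads. Splice junctions and contigs on mm9 were not used here.

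Symbols and positions came from GENCODE M21 on GRCm38 by stable identifier (42462 of 43346 genes matched). Transcript lengths equalled those of M21 for 27 of 28 transcripts of the members, the exception being Gstm1-202. Gene levels are given per library with mean and SD. Neighbours in the order of levels were called apart where the ranges of the libraries did not overlap. Libraries were compared with a two-sided exact conditional binomial test (SciPy 1.17.1) on TMM-scaled counts (edgeR 4.0.16, R 4.3.3), over genes with at least 20 reads in both together, with Benjamini-Hochberg adjustment at 0.05 and a prior of 0.5 reads in log2 ratios. It tests counting error between 2 libraries only, since 1 group holds no contrast for a model across replicates. Alternatives were DESeq2 1.42.0 size factors, total reads, spike-in totals, posterior means, no filter and other scalings of TPM. Coding sequences were aligned globally with Biopython 1.88. Intervals cover counting error only, because they rest on 1 library on each side. Reads lacking molecular identifiers may be copies of 1 molecule, in which case the intervals are too narrow and the p-values too small.

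Named were all members, transcripts at 10% or more of a gene, the neighbours of the cluster, the 2 genes above and the 2 below Gstm1 in level, the other transferases at a mean of 1 TPM or more, and the 3 most abundant genes of each pathway list; marker lists fall outside this rule. Other genes and transcripts were named for their place in the cluster or their role after their values were seen. Members, lists and the 50 TPM limit were chosen with earlier results of these data known.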

Additional observations from a re-analysis of the deposited data

How the results depend on the processing

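Of 64 values recomputed under alternatives that keep both libraries, 52 stayed the same, 10 moved by the spread or more and 2 lost their call. Staying the same meant a kept call, a move by less than the spread or, for counts of called genes, a change within 1.5-fold. The 32 values with a library left out say nothing of stability, since with 2 libraries they lie within 1 SD of the mean by construction. The order of the 7 levels was the same in each library alone, with posterior mean TPM and with reads per annotated length. TPM rescaled over nuclear protein-coding genes says nothing of the order. It changes all genes of a library by 1 factor and so cannot alter an order that both libraries share. Rescaling over nuclear protein-coding genes, which hold 82.0% and 83.3% of TPM, raised every mean, to 3514 TPM for Gstm1, 253 for Gstm2, 157 for Gstm3, 146 for Gstm6, 122 for Gstm7, 94.9 for Gstm4 and 12.3 for Gstm5. Reads per annotated length gave 125.0 TPM for Gstm6. Posterior mean percentages gave 94.4% for Gstm5-201 and 91.97% for Gstm7-201. The log2 ratio of Gstm6 fell short of the threshold with total reads (-0.042) and spike-in totals (-0.013). Why reads per length and posterior means moved these values was not tested. Called genes numbered 8370, and 8377 to 8701 under the alternatives. The share of Gstm1 in its class ran from 79.1% to 84.0% when either library was left out. No paired analysis was possible because there is 1 group, and leaving out a library leaves no comparison between libraries. Having 2 libraries limits the precision of every level, and depth limits the ratio of Gstm5.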

Other observations

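Regulators and co-targets known for the Mu genes covered a wide range of levels. The NRF2 gene Nfe2l2 had 32.3 ± 3.16 TPM and its inhibitor Keap1 61.9 ± 5.50 TPM, and of 23 genes of this axis tested, 5 were higher in replicate 2 and 9 in replicate 1, with a median log2 ratio of 0.05. With spike-in totals the counts were 12 and 4, with a median of 0.20. The most abundant were Prdx1 (341 ± 20.8 TPM), Ephx1 (251 ± 5.69 TPM) and Tkt (118 ± 33.2 TPM). The constitutive androstane receptor Nr1i3 had 189 ± 11.9 TPM. Among its known targets, Cyp2b10 (18.1 and 67.4 TPM) and Cyp2c55 (2.96 and 10.02 TPM) were picked out after their values were seen. Both were higher in replicate 2, with log2 ratios of 1.80 and 1.63, as was Cyp2b9 (260.4 and 533 TPM). Of the 14 genes of the foreign compound receptors, 6 were higher in replicate 2 and 5 in replicate 1, and 9 and 3 with spike-in totals. Among the 5 were Por and Nr1i2, with log2 ratios of -0.36 and -0.32. Cyp1a2, Cyp3a11 and Cyp2b9 were the most abundant of the 14, at 838 ± 1.61, 623 ± 183 and 397 ± 193 TPM. For both lists, the shares over all 14533 genes were 28.6% higher in replicate 2 and 29.0% in replicate 1, and with spike-in totals 6411 and 2290 genes.

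Genes of the pericentral zone, around the central vein of the liver lobule, were higher in replicate 1 in 13 of 17 cases, against 1 in replicate 2, with a median log2 ratio of -0.33. With spike-in totals these were 9 against 6, with a median of -0.18. Over all genes 29.0% were higher in replicate 1, and of those at 50 TPM or more 60.8% were, with a median of -0.11 and 25.99% higher in replicate 2. Cyp2e1 (2125 ± 69.7 TPM), Oat (1221 ± 427 TPM) and Cyp1a2 led this list. Periportal genes were higher in replicate 1 in 10 of 13 cases, against 3, with a median of -0.30 (8 against 5, and -0.15, with spike-in totals), led by Alb (33438 ± 1873 TPM), Ass1 and Gls2. Gstm2, Gstm3, Gstm6 and Gstm7 had the sign of both medians and Gstm1, Gstm4 and Gstm5 the opposite sign, which is a description of these 2 libraries. Gstm5 was not called, at 0.05, and with spike-in totals Gstm6 was not called, at -0.01.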
